A study of Homo sapiens with 6 samples.

Results

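The genes described here encode the hypoxia-inducible factor (HIF) subunits HIF1A, EPAS1, HIF3A and ARNT, the HIF prolyl hydroxylases EGLN1, EGLN2 and EGLN3, the asparaginyl hydroxylase HIF1AN, the ubiquitin ligase subunit VHL, and UBXN7. They were chosen by name, for their place in the pathway that controls HIF-1α protein, with earlier results of these data known. All 10 were found among the 58021 genes of the count tables. RNA was sequenced from HEK293 cells, a human embryonic kidney line, in 3 libraries labelled WT and 3 labelled MUL1(−/−). MUL1 is a mitochondrial E3 ubiquitin ligase that ubiquitinates the UBXN7 protein, and it was inactivated in HEK293 with CRISPR-Cas9. Both genotypes were grown in the same DMEM medium with fetal calf serum, glutamine and antibiotics, and the labels name no hypoxic treatment. The sources used here do not give which MUL1(−/−) clone was sequenced or whether the 3 libraries of a genotype came from separate cultures, so the tests below measure the spread between these libraries, and a difference between genotypes cannot be told apart from a difference between clones.

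HIF is a pair of an oxygen-regulated α subunit and the stable β subunit ARNT. When oxygen is plentiful, EGLN enzymes hydroxylate prolines of the α subunit, VHL binds the hydroxylated protein, and a cullin ligase marks it for the proteasome, while HIF1AN hydroxylates an asparagine and so blocks the binding of coactivators. UBXN7 is a cofactor of the segregase p97 that binds both the cullin ligase and HIF-1α. Because α subunits are controlled mainly as proteins, the levels of their mRNAs need not follow those of the proteins, and the libraries measure mRNA only.

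Sums over the deposited exon bins were 132849479 to 149317215 counts in WT and 127466071 to 128125459 counts in MUL1(−/−) libraries. Levels are given in CPM, the count relative to the TMM-scaled total of its library, on which a count of 3, the floor taken here, is worth 0.0203 to 0.0234 CPM. MUL1 itself was at 14.6, 14.6 and 18.2 CPM in WT and at 17.8, 15.9 and 18.6 CPM in MUL1(−/−). Its log2 fold change of 0.14 ± 0.10 (SE) had an adjusted p of 0.30, so its mRNA did not check the genotype labels, on which every direction below rests. Of 6 genes that HEK293 cells are known to express (KRT8, KRT18, VIM, NEFL, NEFM, PAX2), all were detected, with a summed level of 1234 to 1432 CPM in WT and 891 to 1047 CPM in MUL1(−/−). Of these, 1 was called higher, NEFM, with a log2 fold change of 1.07. A further 3 were called lower, among them PAX2 at −1.79 and KRT8 at −0.93. Of all tested genes, 19.3% were called higher and 18.5% lower by the test given below. The blood and endothelial markers PTPRC, CD3E and PECAM1 were at or below 0.396 CPM in every library, with CD3E at 0 in WT. With COL1A1, EPCAM and ALB, the 6 markers of other cell types summed to 78.9 to 79.3 CPM in WT and 73.6 to 76.8 CPM in MUL1(−/−). Of them, 2 were called higher, PTPRC and PECAM1, with log2 fold changes of 1.95 and 2.07 at these low levels. The 1 called lower was COL1A1, at −0.38. EPCAM, at 55.0 to 61.2 CPM, and COL1A1, at 14.3 to 23.7 CPM, made up most of the sum in every library. The part of these marker differences in the results below was not tested.

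All 10 genes passed the filter on low counts. With edgeR's quasi-likelihood test and a Benjamini-Hochberg threshold of 0.05 over 26106 genes, 3 were called higher in MUL1(−/−) (EGLN1, EGLN2, UBXN7), 4 were called lower (EPAS1, ARNT, VHL, HIF1AN), and HIF1A, EGLN3 and HIF3A were not called. These 7 calls of 10 stand beside 37.8% of all tested genes, of which 19.3% were called higher and 18.5% lower. The 7 called genes moved by 19.0 to 33.97%. Their absolute log2 fold changes were 0.304 to 0.422, beside a median of 0.288 over all tested genes. None of the 10 passed the study's second threshold of an absolute log2 fold change above 1, which 7.91% of genes passed together with the adjusted p. That count was also 0 with DESeq2, and 0 at an unadjusted p under 0.05. For 8 of the 10 genes the genotypes were free of overlap, beside 49% of all tested genes.

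**Figure D1:**
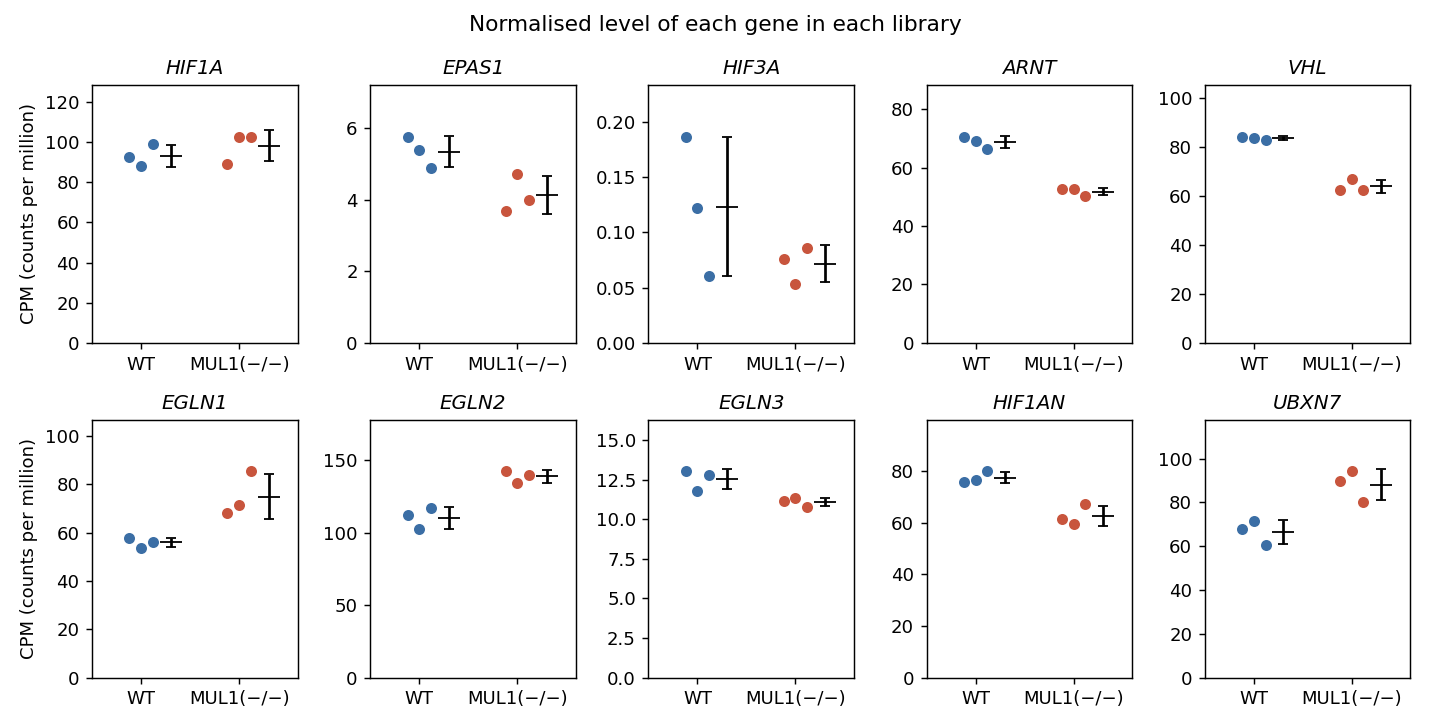
CPM of each of the 10 genes in the 3 WT (blue) and 3 MUL1(−/−) (red) libraries, each panel with its own axis from 0. Points are libraries, and the black bars give the mean and SD. HIF1A and HIF3A are the genes whose genotypes overlap.

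Of the α subunits, HIF1A mRNA was nearly level between genotypes while that of EPAS1 fell. HIF1A encodes HIF-1α, the subunit whose protein UBXN7 is known to control. Its mRNA was at 92.4, 88.1 and 99.0 CPM in WT and at 89.1, 102.7 and 102.4 CPM in MUL1(−/−). The genotypes overlapped, since replicate 1 of MUL1(−/−) lay below the mean of WT. The log2 fold change was 0.07 with a 95% confidence interval of −0.09 to 0.24 and an adjusted p of 0.48, so a rise of more than 0.24 on the log2 scale lies outside that interval.

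HIF1A (ENSG00000100644) spans 61695513 to 61748259 on the plus strand of chromosome 14 of GRCh38. In the deposited tables it shares an identifier with 2 other genes of that strand, SNAPC1 and AL137129.1. SNAPC1 encodes a subunit of a complex that activates small nuclear RNA genes. Of the 24 bins that, on this strand, only HIF1A exons touch and that reached a mean of 0.5 CPM, 22 were higher and 2 lower in MUL1(−/−), with a median log2 ratio of 0.08. All 6 bins of SNAPC1 alone were lower, by log2 ratios of −0.73 to −0.49. Separated by exon, SNAPC1 was at 17.98 ± 0.67 CPM in WT and 12.5 ± 1.10 CPM in MUL1(−/−) (mean ± SD over 3 libraries, as below), and its log2 fold change was −0.53 with an adjusted p of 3.5e-04. Summed under the joined identifier, the same counts gave a log2 fold change of −0.01 with an adjusted p of 0.97. A further 7.52% of the HIF1A counts lie in bins that the antisense gene HIF1A-AS1 also touches, and counting did not use strand.

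**Figure D2:**
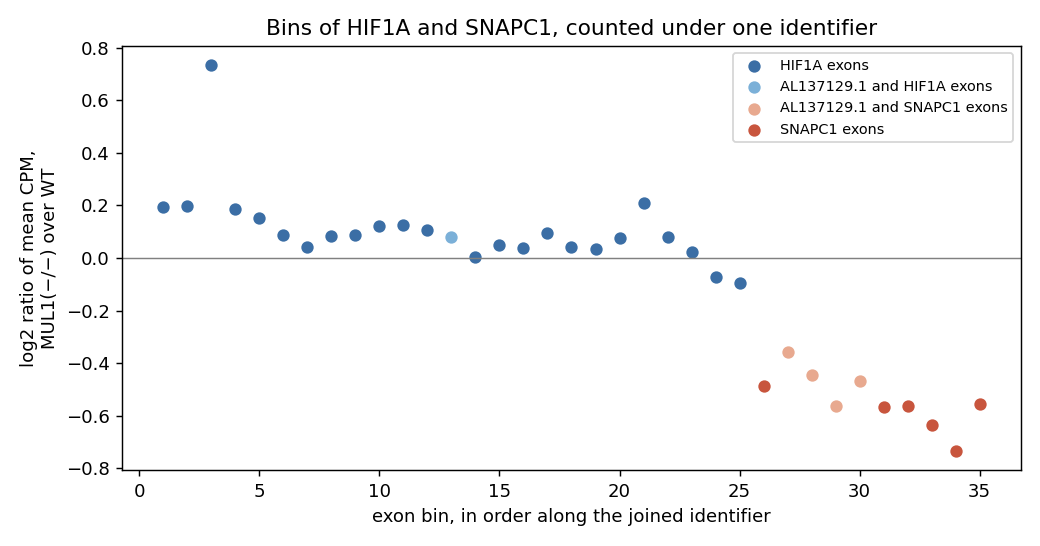
Log2 ratio of the mean CPM of MUL1(−/−) to that of WT for each exon bin of the identifier that joins HIF1A, AL137129.1 and SNAPC1, in order along the chromosome, for bins with a mean of at least 0.5 CPM. HIF1A bins (blue) lie near 0 apart from a 3-base bin at 0.73, and SNAPC1 bins (red) lie between −0.73 and −0.49.

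The sequences below are the coding stretches around the prolines that the EGLN enzymes hydroxylate in HIF-1α and in HIF-2α, the product of EPAS1. They were read from the GENCODE 29 transcripts HIF1A-202 and EPAS1-201 as 30 bases from the leucine codon of the Leu-X-X-Leu-Ala-Pro motif. Capitals mark the proline codon, numbered by its residue in the translated transcript.
HIF1A, proline 402: ttaactttgctggccCCAgccgctggagac
HIF1A, proline 564: ttggagatgttagctCCCtatatcccaatg
EPAS1, proline 405: ctggcccagctggctCCCaccccaggagac
EPAS1, proline 531: ttggagacactggcaCCCtatatccccatg
The first lies at chr14:61737049-61737078 and the second at chr14:61740770-61740799, and those of EPAS1 lie at chr2:46376702-46376731 and chr2:46380248-46380277, all on the plus strand. The bin that holds the HIF1A proline 402 codon was at 4.99 ± 0.397 CPM in WT and 5.17 ± 0.395 CPM in MUL1(−/−). The bin with the proline 564 codon was at 3.78 ± 0.249 and 3.88 ± 0.345 CPM. The bins that hold the target prolines of HIF-1α were thus at like levels in both genotypes within the spread of the libraries. Neither bin departed from the rest of the gene (adjusted p 1.00 in edgeR's exon-level test). Counts per bin do not tell whether a message carries both codons.

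EPAS1 (ENSG00000116016, chromosome 2, 46293667 to 46386703) encodes HIF-2α, the α subunit of endothelium and of the erythropoietin-producing cells of the kidney. It was at 5.77, 5.39 and 4.90 CPM in WT and at 3.70, 4.73 and 4.01 CPM in MUL1(−/−). All 3 MUL1(−/−) libraries lay below all 3 WT libraries. Its log2 fold change was −0.37 ± 0.12 (SE) with an adjusted p of 0.028, and 21 of the 25 bins holding at least 1% of its counts were lower. This call was the least secure of the 7. With library totals in place of TMM factors its adjusted p was 0.060, and it was 0.118 without WT replicate 1, 0.072 without WT replicate 2 and 0.120 without MUL1(−/−) replicate 1.

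HIF3A (ENSG00000124440, chromosome 19, 46297046 to 46343433), whose product includes forms that oppose HIF, was barely detected. It had 25, 18 and 8 counts in WT and 10, 7 and 11 counts in MUL1(−/−), or 0.123 ± 0.063 and 0.072 ± 0.017 CPM. The genotypes overlapped. The log2 fold change was −0.78 with a 95% confidence interval of −1.75 to 0.19 and an adjusted p of 0.20, so at this depth neither a fall by more than a log2 unit nor no change could be set aside.

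ARNT, the stable β subunit that pairs with the HIF-α subunits, fell. It was at 70.6, 69.2 and 66.5 CPM in WT and at 52.5, 52.5 and 50.3 CPM in MUL1(−/−). The replicates of each genotype lay close together and far from the other genotype. The log2 fold change of −0.41 ± 0.07 (SE), a decrease by 24.7%, had an adjusted p of 2.4e-04. All 34 bins holding at least 1% of the ARNT counts (ENSG00000143437, chromosome 1, 150809705 to 150876768, minus strand) were lower, and in 30 of them the genotypes did not overlap. Bins of a gene share reads, so they are not separate measurements.

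The prolyl hydroxylases differed among themselves. EGLN1, which encodes PHD2, the main oxygen sensor of most cells, rose from 57.8, 53.8 and 56.1 CPM in WT to 68.0, 71.3 and 85.3 CPM in MUL1(−/−). Replicate 3 of MUL1(−/−) was the highest, and the spread between MUL1(−/−) libraries (SD 9.21) was wider than between WT libraries (SD 1.99). Its log2 fold change was 0.42 ± 0.08 (SE), with an adjusted p of 0.0013. All 6 bins holding at least 1% of the counts of EGLN1 (ENSG00000135766, chromosome 1, 231363751 to 231425044, minus strand) were higher without overlap, by log2 ratios of 0.35 to 0.59. The highest ratio was that of the bin with the first coding exon.

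EGLN2, which encodes PHD1, was at 111.9, 102.2 and 116.8 CPM in WT and at 142.3, 133.9 and 139.9 CPM in MUL1(−/−). Every MUL1(−/−) library lay above every WT library. On the log2 scale it rose by 0.33 ± 0.07 (SE), with an adjusted p of 0.0016. EGLN2 (ENSG00000269858, chromosome 19, 40798996 to 40808433) is 1 of 7 genes under a joined identifier, and 91.1% of its counts lie in bins that exons of other genes touch, those of the readthrough gene RAB4B-EGLN2 among them. In the bins that no other gene touches, the log2 fold change was 0.28 with an adjusted p of 0.035. Its upstream neighbour RAB4B, a small GTPase of endosomes under the same identifier, was at 30.5 ± 5.22 CPM in WT and 27.5 ± 2.52 CPM in MUL1(−/−), with an adjusted p of 0.33. The joined identifier as a whole gave a log2 fold change of 0.25 with an adjusted p of 0.0074.

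EGLN3, which encodes PHD3 and is itself a known HIF target, was at 13.0, 11.8 and 12.8 CPM in WT and at 11.1, 11.3 and 10.8 CPM in MUL1(−/−). The genotypes did not overlap, yet the log2 fold change of −0.18, with a 95% confidence interval of −0.37 to 0.01, had an adjusted p of 0.12. The 30 bins of EGLN3 (ENSG00000129521) run from 33924231 to 34462774 on chromosome 14. Nearly all counts lay in the 12 bins at the 3′ end of this range, at 12.5 ± 0.670 CPM in WT, while the 18 bins farther upstream held between 0 and 6 counts in a library.

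HIF1AN, which encodes the asparaginyl hydroxylase FIH, fell over the gene as a whole but not evenly along it. It was at 75.9, 76.6 and 79.9 CPM in WT and at 61.6, 59.6 and 67.1 CPM in MUL1(−/−), without overlap. The log2 fold change was −0.30 ± 0.07 (SE), with an adjusted p of 0.0033. Its first bin and its last bin together hold 69.0% of the counts. The first, from 100529072 to 100529396 on chromosome 10, is an exon of the noncoding transcript HIF1AN-205 alone and overlaps NDUFB8 on the other strand. NDUFB8, a subunit of respiratory complex I, fell with a log2 fold change of −0.44 (adjusted p 2.0e-04), and without strand the reads of both genes cannot be told apart there. This bin held 28.2 ± 1.17 CPM in WT and 20.6 ± 1.34 CPM in MUL1(−/−). In the HIF1AN bins that no other gene touches, the log2 fold change was −0.22 with an adjusted p of 0.032.

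The last bin, from 100548093 to 100559998, holds the end of the coding sequence and the long 3′ UTR. It fell from 27.1 ± 0.852 to 20.8 ± 0.804 CPM, a log2 fold change of −0.39 with an adjusted p of 0.0010. In the 14 bins between, which hold most of the coding exons, HIF1AN was at 20.8, 21.8 and 23.9 CPM in WT and at 19.8, 20.5 and 23.8 CPM in MUL1(−/−). These overlapped, and the log2 fold change was −0.05 ± 0.09 (SE) with an adjusted p of 0.69, so the call for HIF1AN did not hold in them. The 14 bins made up 27.4, 28.5 and 29.9% of the counts of the gene in WT and 32.2, 34.4 and 35.5% in MUL1(−/−), with an exact two-sided permutation p of 0.10, the smallest that 3 against 3 can give. This division of the gene was made after its bins had been seen.

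**Figure D3:**
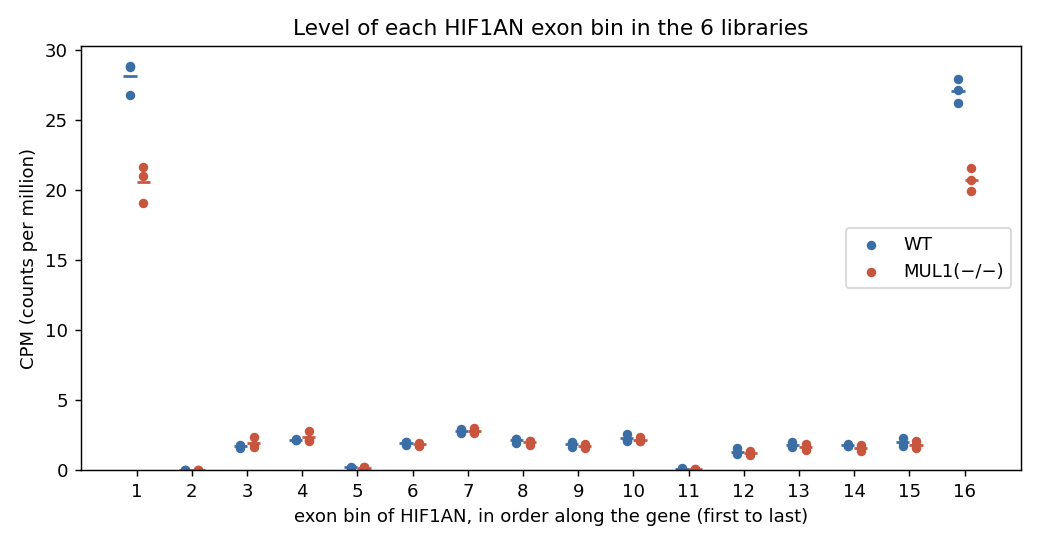
CPM of each of the 16 exon bins of HIF1AN in order along the gene, with WT libraries in blue, MUL1(−/−) libraries in red and lines at the means. The genotypes separate in the first and last bins and overlap in the bins between.

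In the test of each bin against the other bins of its gene, 193 of the 299 bins of the 10 genes could be tested, and 2 of them, or 1.04%, were called, beside 1.58% of 336030 bins tested. No bin of HIF3A passed the filter. Both called bins were of HIF1AN, from 100535915 to 100536050 (log2 difference from the rest of the gene 0.49, adjusted p 0.0078) and from 100536051 to 100536135 (0.40, adjusted p 0.031), and they hold the start of the coding sequence. Neither was called without WT replicate 2 or without MUL1(−/−) replicate 3. The second was also lost without WT replicate 1, WT replicate 3 or MUL1(−/−) replicate 2. The limma test called instead only the first bin of the gene, with a log2 difference of −0.34 and an adjusted p of 0.0075.

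A bin of 3 bases in HIF1A, singled out after its values were seen, lay just outside the threshold. It runs from 61720379 to 61720381 and extends exon 2 at its 5′ end in the transcripts HIF1A-203, HIF1A-204 and HIF1A-212. The junctions of exon 1 and exon 2 in HIF1A-202 and HIF1A-203 show the difference, with the 3 added bases in capitals.
HIF1A-202: cgacaagaaaaagataagttctga
HIF1A-203: cgacaagaaaaaTAGgataagttctga
The bin had 55, 61 and 62 counts in WT and 93, 90 and 98 counts in MUL1(−/−). Relative to the other 191 bases of the exon this was 10.7, 11.5 and 11.9% in WT and 16.4, 15.2 and 18.1% in MUL1(−/−), without overlap and with an exact two-sided permutation p of 0.10, the smallest possible. Its log2 difference from the rest of the gene was 0.66 with an adjusted p of 0.051, and 0.035 when bins with a mean under 20 counts were left out. Reads that run from the intron into the exon would also be counted in this bin, and their part was not tested.

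VHL, the subunit that recognises hydroxylated HIF-α, fell. It was at 84.3, 83.6 and 82.8 CPM in WT and at 62.3, 67.0 and 62.6 CPM in MUL1(−/−). The WT libraries differed from each other by less than the gap between genotypes. The log2 fold change of −0.39 ± 0.07 (SE), a decrease by 23.4%, had an adjusted p of 3.6e-04. All 6 bins holding at least 1% of the counts of VHL (ENSG00000134086, chromosome 3, 10141008 to 10152220) were lower without overlap, by log2 ratios of −0.64 to −0.26. The coding exons and the 3′ UTR therefore moved the same way.

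UBXN7, the p97 cofactor whose protein is a substrate of MUL1, rose at the mRNA level. It was at 67.8, 71.4 and 60.6 CPM in WT and at 89.6, 94.2 and 80.3 CPM in MUL1(−/−). The lowest MUL1(−/−) library lay above the highest WT library. On the log2 scale the rise was 0.40 ± 0.08 (SE), or 32.2%, with an adjusted p of 0.0013. All 15 bins holding at least 1% of the counts of UBXN7 (ENSG00000163960, chromosome 3, 196347662 to 196432474, minus strand) were higher, 14 of them without overlap. The long last bin, part of the 3′ UTR with 50.4% of the counts, had the lowest log2 ratio among them, 0.28, and the highest, in a coding exon of 80 bases, was 0.76. No UBXN7 bin passed the test of bins.

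Levels were compared between genes only as CPM per kilobase of the summed bins. In WT, VHL was the highest at 19.8 ± 0.172 CPM per kilobase, followed by HIF1A at 18.1 ± 1.07 and EGLN2 at 16.8 ± 1.13, which overlapped each other. ARNT was at 10.6 ± 0.325, EGLN1 at 7.69 ± 0.275, UBXN7 at 5.90 ± 0.484 and HIF1AN at 5.55 ± 0.155, and the last 2 overlapped. EGLN3, EPAS1 and HIF3A were lower, at 1.70 ± 0.089, 0.733 ± 0.060 and 0.0147 ± 0.0075 CPM per kilobase.

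In MUL1(−/−) the order differed at the top. EGLN2 was the highest at 21.1 ± 0.655 CPM per kilobase, with HIF1A next at 19.0 ± 1.51, followed by VHL at 15.2 ± 0.631. EGLN1, at 10.3 ± 1.27, stood above ARNT, at 7.95 ± 0.195, which overlapped UBXN7 at 7.80 ± 0.626. HIF1AN followed at 4.50 ± 0.279, and the order of EGLN3, EPAS1 and HIF3A was as in WT. Of the α subunits, HIF1A had the highest mRNA level per kilobase in both genotypes. The bins of a gene include exons that these cells may not use, such as those of EGLN3, so a level per kilobase depends on the annotation. It also rises with the number of bins a read touches. The sum over bins was 13.1 times the most counted bin for ARNT, 12.5 times for EGLN2 and 10.4 times for HIF1A. For VHL it was 2.16 times, for EGLN1 2.29, for UBXN7 1.98 and for HIF1AN 2.87 times. The order of these genes within a genotype was not tested on another count. Most EGLN2 counts lie in shared bins, as do 34.8% of those of HIF1AN, in the bin that overlaps NDUFB8.

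Genes near each other on a chromosome moved together in several of these places, so the median log2 fold change of the 20 nearest tested genes is given beside each gene. Only the gene itself was left out, so neighbours can share its counts. Such genes are RAB4B-EGLN2 around EGLN2, HIF1A-AS1 around HIF1A and NDUFB8 around HIF1AN. Around UBXN7, on chromosome 3, the median was 0.63, and 12 of the 20 genes were called higher and 1 lower. Around EGLN2 the median was 0.44, with 11 called higher and 3 lower. Both genes thus rose by less than the median of their neighbours, and the difference from it was −0.23 for UBXN7 and −0.11 for EGLN2. Around HIF1AN the median was −0.49, with 16 of 20 called lower and 1 higher, and HIF1AN fell by less, with a difference of 0.18. That difference uses the whole gene, with the first bin that overlaps NDUFB8. The 14 HIF1AN bins between the first and the last had a log2 fold change of −0.05.

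HIF1A was near level where its neighbours had a median of −0.34, with 5 called lower and none higher, a difference of 0.41. EGLN3 was close to its neighbours, whose median was −0.21. HIF3A, near the floor, had neighbours with a median of 0.55, of which 13 were called higher and none lower, and differed from it by −1.33. ARNT and VHL fell where the medians around them were 0.13 and 0.12, with differences of −0.54 and −0.51, and EPAS1 fell where the median was 0.01. EGLN1 moved the same way as its neighbours, whose median was 0.17 with 8 called higher and 1 lower, and differed from it by 0.25. The part of the neighbourhood in the changes of UBXN7, EGLN2 and HIF1AN was not tested.

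**Figure D4:**
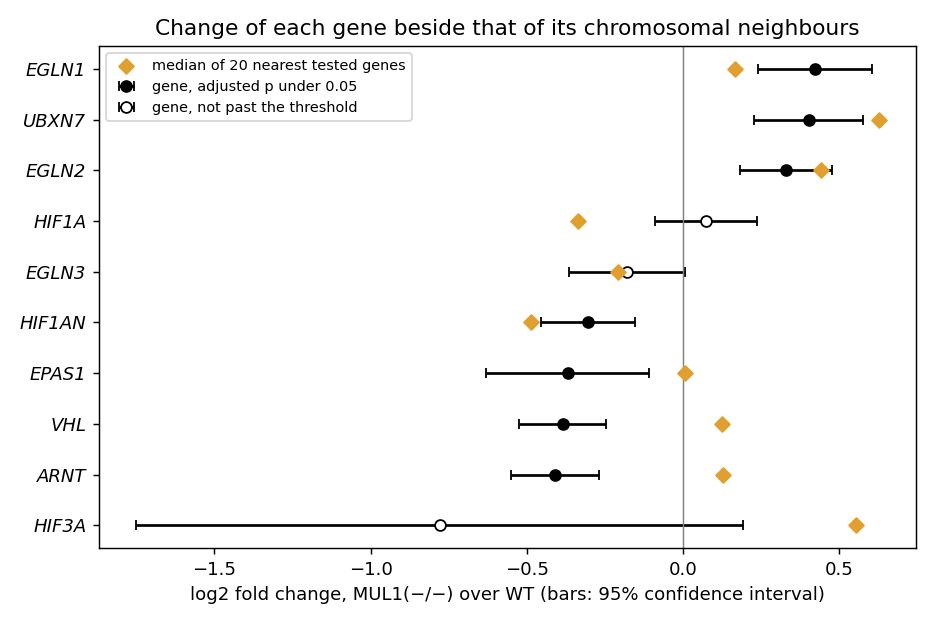
Log2 fold change of each gene (circles, filled where the adjusted p was under 0.05) with its 95% confidence interval, beside the median of its 20 nearest tested genes (diamonds). UBXN7, EGLN2 and HIF1AN lie between 0 and their neighbours, while ARNT and VHL lie below 0 with neighbours above it.

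The remaining machinery that VHL and UBXN7 work with had 29.4% of its genes called, beside 37.8% of all tested genes. Of 17 genes of the VHL ligase and the p97 system, 2 were called higher and 3 lower, beside 19.3% and 18.5% of all genes, and their median log2 fold change was 0.0027, against −0.0014 over all tested genes. FAF2, another UBX-domain cofactor of p97, rose with a log2 fold change of 0.41 (adjusted p 0.0010), and UBE2M, the enzyme that conjugates NEDD8 to cullins, with one of 0.22 (adjusted p 0.029). RBX1, the RING subunit of cullin ligases, fell by 0.29 on the log2 scale (adjusted p 0.0037), as did NEDD8 by 0.21 (adjusted p 0.018). The ubiquitin-conjugating enzyme UBE2D1, named after its value was seen, fell by 0.29 (adjusted p 0.043). The higher count was 1 without WT replicate 2 and 5 with library totals, and the lower count was 1 without WT replicate 1, without MUL1(−/−) replicate 1 and with library totals.

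Of 16 HIF partners, coactivators and regulators, 5 were called higher and 3 lower, beside 19.3% and 18.5% of all tested genes, with a median log2 fold change of 0.13. ARNT2, which can take the place of ARNT in the HIF pair, rose from 6.94 ± 0.330 to 18.3 ± 1.80 CPM, a log2 fold change of 1.40 ± 0.10 (SE) with an adjusted p of 1.4e-07. It was the only gene of this list past both thresholds, and the median of its own 20 neighbours was 0.53. The coactivator CREBBP rose with a log2 fold change of 0.56 (adjusted p 9.1e-05). The chaperone HSP90AB1 fell by 0.44 (adjusted p 1.9e-04), and RACK1, which favours the oxygen-independent loss of HIF-1α, by 0.36 (adjusted p 7.0e-04), both on the log2 scale. The other 3 higher genes were EP300, CITED2 and CITED4, and the other lower gene was STUB1, all named after their values were seen. The higher count was 3 without WT replicate 2 and 8 with library totals.

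Of 22 genes known as hypoxia-inducible HIF targets, 4 were called higher and 13 lower, beside 19.3% and 18.5% of all tested genes, with a median log2 fold change of −0.29. SLC2A1, the glucose transporter GLUT1, rose from 63.7 ± 3.90 to 115.9 ± 10.97 CPM, a log2 fold change of 0.86 with an adjusted p of 2.0e-06. ADM, which encodes adrenomedullin, rose by a log2 fold change of 0.41 (adjusted p 0.0019). CA9, a carbonic anhydrase, had 4 to 11 counts in WT and 13 to 21 in MUL1(−/−), with a log2 fold change of 1.24 (adjusted p 0.044).

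Among the targets that fell, MXI1, an antagonist of MYC, changed by −0.85 (adjusted p 2.0e-06) and P4HA1, a subunit of collagen prolyl hydroxylase, by −0.76 (adjusted p 5.8e-06) on the log2 scale. EPO, the erythropoietin gene, was low at 0.331 ± 0.067 CPM in WT and 0.150 ± 0.043 CPM in MUL1(−/−), a log2 fold change of −1.13 with an adjusted p of 0.0094. The called targets were thus mostly lower, and 17 of the 22 had a log2 fold change below 0. The 20 nearest tested genes had a median of −0.57 around MXI1, −0.47 around P4HA1 and −0.41 around EPO. Around SLC2A1, ADM and CA9 it was 0.03, 0.10 and 0.12. Of the 22 targets, 14 lay on the same side of 0 as the median of their neighbours. The same count was 5 of the 10 genes described here, 9 of the 17 of the VHL and p97 list and 8 of the 16 partners. The share over all tested genes was not computed. The part of the neighbourhood in the changes of the targets was not tested. The count of lower targets was 10 to 14 when each library was left out in turn, while the count of higher targets was 2 with DESeq2, with a filter of 1 CPM, with the most counted bin of each gene, and without WT replicate 1, WT replicate 2 or MUL1(−/−) replicate 2. These target genes have other regulators, and no list was tested as a set.

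Of the 10 genes, 9 had a promoter sequence in RefSeq (GRCh38.p14), from 250 bases before to 50 after a transcript start. The core of the hypoxia response element, ACGTG or GCGTG on either strand, was present in 5 of the 13 promoters of these genes, 1 each of HIF1A, EPAS1, HIF3A, EGLN1 and EGLN2, beside 48.4% of 35116 promoters. The matches of EGLN1 and EGLN2, the hydroxylases called higher, are shown with the motif in capitals.
EGLN1: gggccgtggtgtACGTGcagagcgc
EGLN2: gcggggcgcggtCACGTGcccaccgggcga
The first begins 13 bases before the start (chr1:231422288-231422312, minus strand). The second begins 49 bases before it (chr19:40799130-40799159, plus strand) and matches on both strands, with overlap. ARNT, UBXN7, HIF1AN and EGLN3 had no match in these windows.

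The genes whose log2 CPM over the 6 libraries was most like that of HIF1A were ECHDC1, TMEM165 and VTA1, with Pearson's r of 0.994, 0.993 and 0.990. None of these 3 was called, and 22 of 26105 genes had an r above 0.95. Most like UBXN7 were DNAH2, PEAK1 and GHR, with r of 0.999, 0.998 and 0.994, and all 3 were called higher. For UBXN7, 294 genes had an r above 0.95. The points share the libraries and their scaling, and with 6 libraries in 2 genotypes such values are a description.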

How the data were processed

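RNA-seq libraries of HEK293 WT and MUL1(−/−) cells, 3 each, were made from total RNA with a SMARTER kit. Per the labels, the authors used Trimmomatic 0.36, STAR 2.5.2b and GRCh38, and the deposited values are raw read counts per exon bin, without normalization, in 597973 bins of a flattened annotation. The counting program is not given in the sources used here. Bins of opposite strands on the same bases held equal counts (median ratio 1 over 12 pairs), so strand was not used. The analysis plan assumed counts per gene. A gene's count was therefore the sum over its bins, and bins of joined identifiers, with 21.0% of all counts, were assigned by GENCODE 29 exons. A read is counted in each bin it touches, so sums exceed reads (median ratio of sum to most counted bin 3.08).

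Genes were tested with edgeR 4.0.16 (TMM, filterByExpr, quasi-likelihood test, Benjamini-Hochberg, R 4.3.3), and bins with its exon-level test against the other bins of a gene. DESeq2, the test of the study, was an alternative here (1.42.0), as were limma 3.58.1 for bins, other scalings, filters and ways to count, a replicate block, and each library left out. Fits were tested on simulated data: at a log2 change of 0.4, edgeR recovered 44 of 100 changed genes among 26106. Another 100 genes were changed by 2, and 17 unchanged genes were called. In the data 9864 genes were called, so the adjusted p sets another cut there. The share recovered in the simulation is therefore not that of the fit above. The floor of 3 counts covers counting error only. Replicates differed by 3.32 to 11.1 times sampling noise (chi-square over degrees of freedom).

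The members and lists were chosen with earlier results of these data known. Genes are named by a rule: the 10 members, MUL1, the 3 genes most like HIF1A and most like UBXN7, and, of each pathway list, those past both thresholds (adjusted p under 0.05, log2 fold change beyond 1 either way) and, for higher and lower genes separately, the 2 with the smallest p. Protein sequences were not used here, and some results the rule covers are left out.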

Additional observations from a re-analysis of the deposited data

How the results depend on the processing

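Over the 15 alternative fits, 3 of the 10 genes were called higher in each, and 3 or 4 lower, since EPAS1 lost its call in 4 of them (values above). ARNT, VHL, EGLN1, EGLN2, HIF1AN and UBXN7 kept their direction and call in all 15, and none of the 10 passed both thresholds. HIF3A gave no value with the 1 CPM filter or the most counted bin. With joined identifiers whole, HIF1A turned to −0.0051. Less the median of the 20 nearest genes, UBXN7 turned to −0.23, EGLN2 to −0.11 and HIF1AN to 0.18. Without its first and last bins, an alternative added after seeing the data, HIF1AN was at −0.05 (adjusted p 0.69), as most of the lower counts lie in the removed bins.

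Of the VHL and p97 list, library totals called 5 higher and 1 lower, and leaving out a library gave 1 to 2 higher and 1 to 3 lower. Of the HIF partners, library totals called 8 higher, and leaving out a library 3 to 6 higher. Of the HIF targets, 2 were higher with DESeq2, with 1 CPM in 3 libraries and with the most counted bin, and 2 to 3 without a library. Of the bins of the 10 genes, limma called 1, and leaving out a library left 0 to 2. Library totals raised the median log2 fold change of all genes to 0.062. The causes were not tested.

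The replicate block called 3 genes higher and 4 lower, with EPAS1 at an adjusted p of 0.033, and changed no other call among the 10. Same-numbered libraries deviated together with correlations of −0.11, 0.17 and 0.099. WT replicates 2 and 3 each correlated best with the MUL1(−/−) replicate of the same number. WT replicate 1 correlated best with MUL1(−/−) replicate 2, at 0.098. Deviations from a mean of 3 libraries depend on each other, so these values cannot decide whether the numbers pair the libraries. Precision is limited by depth for HIF3A, EPO and CA9.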
